A study of Homo sapiens with 2 samples.

Results

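The matrix metalloproteinases (MMPs) and their tissue inhibitors (TIMPs) were examined as 10 genes of the 18774 genes named on the arrays: MMP1, MMP2, MMP3, MMP9, MMP10, MMP13, MMP14, TIMP1, TIMP2 and TIMP3. All probes whose annotated gene symbol was one of these names were taken, which gave 11 of the 48701 probes. TIMP2 had a pair of probes and each of the other genes had 1. Expression was measured on Illumina HumanWG-6 beadchips in MDA-MB-231 cells, an established human breast cancer line that is strongly invasive. One culture received an siRNA at 20 nM against the long isoform (NSD3L) of NSD3, a histone methyltransferase, and the other received a non-targeting siRNA. The sample labels used here give no concentration for the non-targeting siRNA. Both cultures were transfected 2 times, with 48 h after each transfection before the next step. Each condition had 1 array, so the spread between cultures is unknown and no gene could be tested.

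MMPs are zinc-dependent secreted or membrane-bound proteases that cleave extracellular matrix and many cell-surface and soluble proteins. They are made as inactive precursors, and TIMPs bind the active enzymes and block them. In breast cancer the family is known for its part in invasion and in the remodelling of the tissue around the tumour. Transcription of MMP1, MMP3, MMP10 and MMP13, which lie together in a gene cluster on chromosome 11, is known to be induced by growth factors and inflammatory cytokines, in large part through the transcription factor AP-1.

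The deposited intensities had a median of 38.4 on both arrays and kept their background. A probe was called above background where it exceeded a floor of 40.9 on the NSD3L siRNA array and 41.0 on the control array. The floor was passed on both arrays by 16492 probes, and across these probes the log2 ratio of NSD3L siRNA over control siRNA centred on a median of 0.01 with an SD of 0.29. The probes of NSD3 itself read near the floor. Those annotated to the transcript record of the targeted long isoform read 37.6 on the NSD3L siRNA array against 41.9 on the control array and 41.6 against 45.0. The probe annotated to the record of the short isoform, which the siRNA is not described as targeting, read 40.8 against 55.3. Of these 3 probes, 2 were below the floor on the NSD3L siRNA array, so the readings do not establish how far the long isoform was depleted. All 8 marker genes of the MDA-MB-231 line were above the floor on both arrays, while 9 of 11 fibroblast markers and 6 of 10 markers of blood cells and macrophages were below it on both. Summed list intensities include readings below the floor, such as those of the 9 fibroblast markers. The sums were 508 after the NSD3L siRNA against 483 after the control for fibroblasts, and 1559 against 1556 for blood cells and macrophages. Most of the latter sums came from CD68, at 1195 against 1179. Of 10 luminal epithelial markers, 6 were measured, 5 of them higher and 1 lower, with a summed list intensity of 3407 against 2748. The keratin genes KRT18, by its brightest probe, and KRT19 had log2 ratios of 0.42 and 0.39, and the dimmer KRT18 probes gave 0.30 and 0.01. ESR1, PGR, GATA3 and FOXA1 were below the floor on both arrays. The part of these shifts in the MMP and TIMP values was not tested.

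Of the 11 MMP and TIMP probes, 6 were above the floor on both arrays and 5 were below it on both. The collagenase gene MMP1 and the stromelysin gene MMP3 were both more than 2-fold lower with the NSD3L siRNA, and no member was more than 2-fold higher. With intensities as deposited, the 4 TIMP probes stayed within 1.5-fold, 3 of them a little higher and 1 a little lower. With each array's most frequent value subtracted as background, the TIMP2 probe ILMN_1749078 had a log2 ratio of 0.82, past 1.5-fold. The other TIMP probes then ran from -0.07 to 0.30. As deposited, 2 of the 6 measured probes were past 2-fold lower, against 0.418% of all measured probes. None was past 2-fold higher, against 0.267% of all. The members were chosen with earlier results of these data known, so these shares are no independent check. The median log2 ratio of the 6 probes was 0.03. Because RNA was taken from whole cultures, fewer cells expressing a gene and less of its RNA per cell cannot be told apart.

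**Figure D1:**
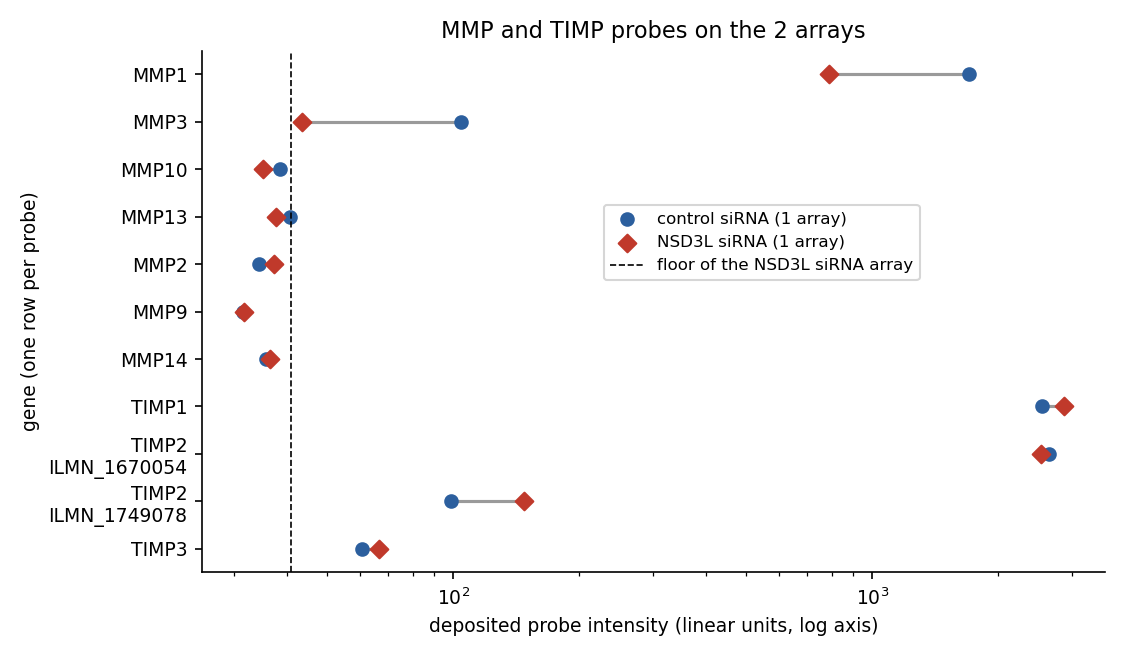
Deposited intensity (x axis, linear units on a log axis) of each MMP and TIMP probe (y axis) on the control siRNA array (blue circles) and the NSD3L siRNA array (red diamonds), 1 array each, with the floor of the NSD3L siRNA array as a dashed line. Positions are to be compared within a row only. MMP1 and MMP3 lie lower with the NSD3L siRNA, and 5 MMP probes lie left of the floor on both arrays. The readings of each TIMP probe lie close together, except for the dimmer TIMP2 probe (ILMN_1749078), which is 1.49-fold higher with the NSD3L siRNA.

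MMP1 encodes the interstitial collagenase, which makes the initial cut in fibrillar collagens. Its probe (ILMN_1726448) read 787 on the NSD3L siRNA array and 1703 on the control array, 2.16-fold lower, a log2 ratio of -1.11. Both readings were far above the floor, at the 97.3rd and 98.8th percentiles of their arrays. The log2 ratio was the 49th lowest of the 16492 measured probes. Among the 1650 probes of similar brightness, the log2 ratio had an SD of 0.34 and that of MMP1 was the 10th lowest. In that group 0.848% of probes differed by at least as much in either direction. The SD describes the scatter of probes between these 2 arrays and is no replicate error.

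MMP3 encodes stromelysin 1, which degrades proteoglycans, laminin and other non-fibrillar matrix and can activate the precursor of MMP1. Its probe (ILMN_1784459) read 43.5 on the NSD3L siRNA array and 104 on the control array, 2.39-fold lower, a log2 ratio of -1.26. The reading with the NSD3L siRNA was just above the floor, while that with the control was well clear of it. The log2 ratio was the 22nd lowest of all measured probes and the 2nd lowest of the 1649 probes of similar brightness, whose SD was 0.28. MMP3 lay 8.66 intensity units above the most frequent value of the NSD3L siRNA array and 69.1 units above that of the control array. With these most frequent values subtracted as background, its log2 ratio was -3.00, against -1.15 for MMP1. The size of the MMP3 difference therefore depended on how the background was treated, and its direction did not.

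MMP1 and MMP3 each had a single probe, so neither value was checked by a further probe of the same gene.

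The other members of the chromosome 11 cluster in the set read at background. MMP10, which encodes stromelysin 2, a close relative of MMP3, read 35.2 on the NSD3L siRNA array and 38.5 on the control array. MMP13, which encodes collagenase 3, read 37.8 on the NSD3L siRNA array and 40.7 on the control array, the nearest to the floor of the 5 dim probes. Neither reading can be given a fold change, because both arrays were below the floor. Whether the probes of MMP3 and MMP10 tell these related transcripts apart was not tested.

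The gelatinases and the membrane-bound enzyme were also below the floor on both arrays. MMP2, the gelatinase A gene, read 37.3 on the NSD3L siRNA array and 34.3 on the control array. MMP9, the gelatinase B gene, read 31.7 and 31.5. MMP14, which encodes the transmembrane protease that activates the MMP2 precursor on the cell surface, read 36.5 and 35.7. Across the 5 dim probes the readings lay between 31.5 and 40.7, and the raw log2 ratios between -0.13 and 0.12. These readings cannot show whether the genes were expressed below what their probes detect, and a difference between the arrays was not detectable at this signal.

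**Figure D2:**
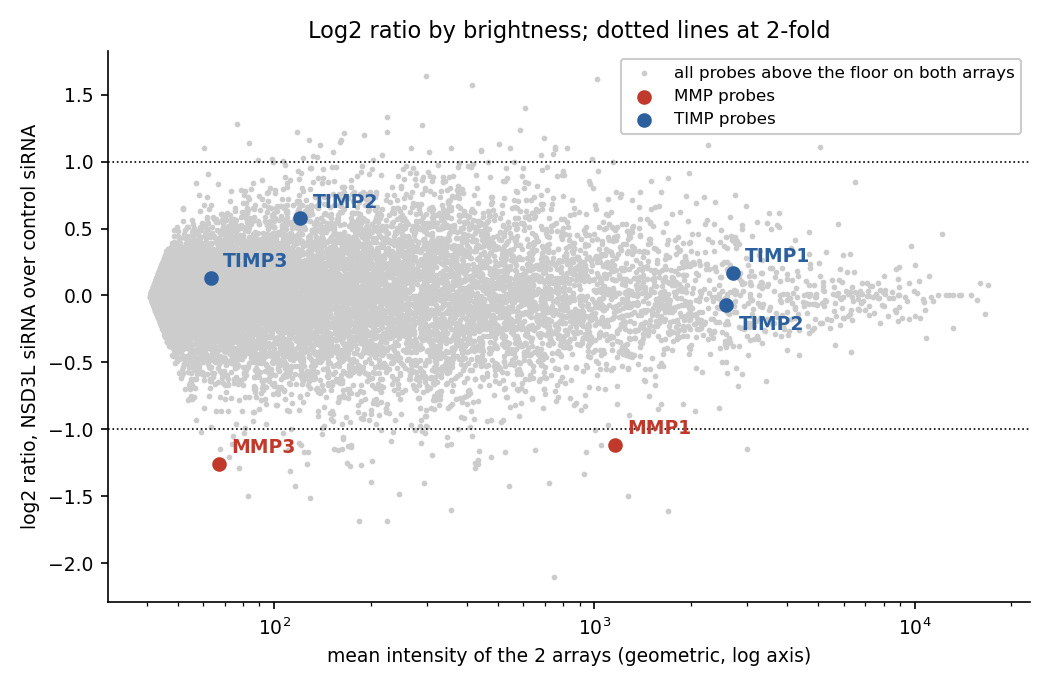
Log2 ratio of NSD3L siRNA over control siRNA (y axis) against the geometric mean intensity of the arrays (x axis, log axis) for the 16492 measured probes (grey), with the MMP probes in red and the TIMP probes in blue. MMP1 at -1.11 and MMP3 at -1.26 lie below the lower dotted line at 2-fold, and the 4 TIMP probes lie inside the grey cloud.

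TIMP1 encodes a secreted inhibitor of most soluble MMPs. Its probe (ILMN_1711566) read 2866 on the NSD3L siRNA array and 2547 on the control array, 1.13-fold higher, a log2 ratio of 0.17. In the group of similar brightness 56.8% of probes differed by at least that much, so the difference was smaller than the scatter of probes between the arrays.

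TIMP2 encodes an inhibitor that also takes part in the activation of MMP2 by MMP14. Its brighter probe (ILMN_1670054) read 2523 on the NSD3L siRNA array and 2647 on the control array, 1.05-fold lower, a log2 ratio of -0.07. Its dimmer probe (ILMN_1749078) read 148 on the NSD3L siRNA array and 98.8 on the control array, 1.49-fold higher, a log2 ratio of 0.58. The TIMP2 probes thus gave opposite signs, with a gap of 0.65 between their log2 ratios, although both were annotated to the same transcript record. Of the 1016 genes with several probes above the floor on both arrays, 58, or 5.71%, had a gap at least that wide, and 388 had probes of opposite sign. The dimmer probe had the 480th highest log2 ratio of all measured probes, and 11.2% of the probes of similar brightness differed by at least as much. The mean of both probes was 0.25. The direction of TIMP2 therefore depended on which probe was read.

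TIMP3 encodes the inhibitor that binds to the extracellular matrix and that also inhibits several ADAM sheddases. Its probe (ILMN_1773664) read 66.4 on the NSD3L siRNA array and 60.5 on the control array, 1.10-fold higher, a log2 ratio of 0.13. The SD among probes of similar brightness was 0.28, and 58.9% of them differed by at least as much.

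The balance between the RNAs of the measured enzymes and inhibitors was described by the difference between their log2 ratios, which no scaling factor of an array can change. Protein amounts and enzyme activity were not measured on the arrays. Relative to TIMP1, MMP1 was 2.44-fold lower and MMP3 2.69-fold lower with the NSD3L siRNA. Relative to TIMP3, MMP1 was 2.38-fold lower and MMP3 2.62-fold lower. Relative to TIMP2 the values ran from 2.06-fold with the brighter TIMP2 probe to 3.23-fold with the dimmer one for MMP1, and from 2.28-fold to 3.57-fold for MMP3. The MMP3 values rest on a reading just above the floor. With each array's mode subtracted as background, MMP3 was 7.61-fold to 14.1-fold lower relative to the 4 TIMP probes, while MMP1 was 2.50-fold lower relative to TIMP1 and 2.11-fold to 3.91-fold relative to the others. All 8 pairings of a measured MMP probe with a TIMP probe went the same way, but the pairs share their probes and are not independent.

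**Figure D3:**
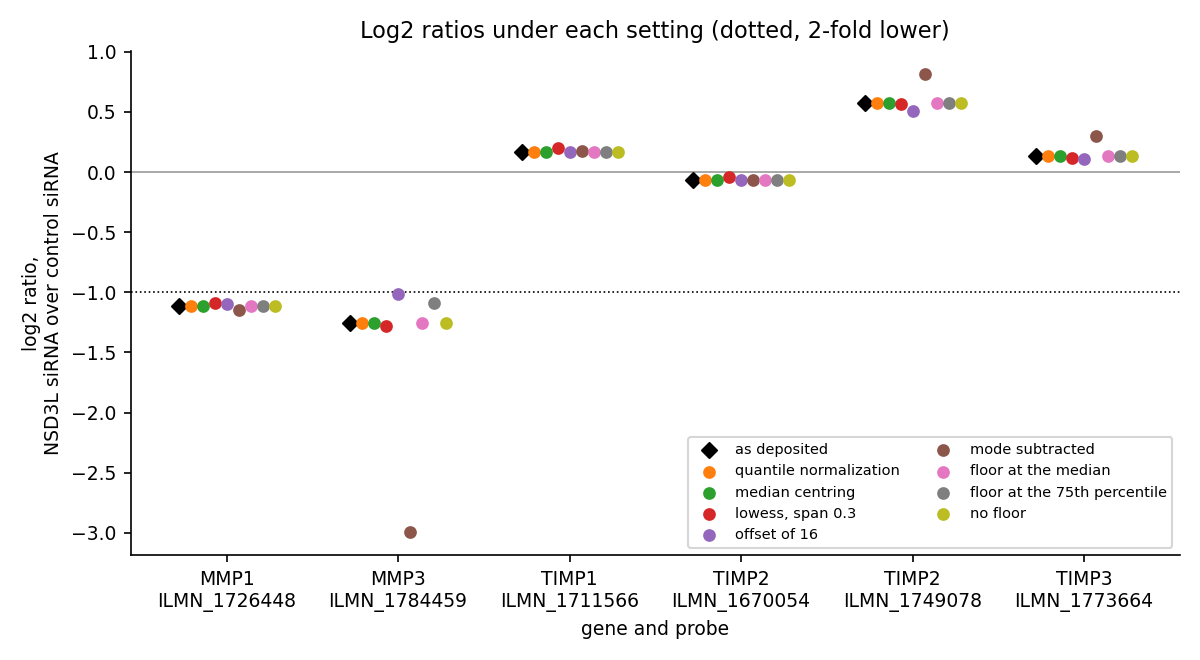
Log2 ratio (y axis) of the 6 measured MMP and TIMP probes (x axis) with intensities as deposited (black diamonds) and under 8 other settings (coloured circles). MMP1 stays between -1.15 and -1.09, MMP3 runs from -3.00 to -1.01, and no probe changes sign. The settings that change only the floor repeat the ratios as deposited, apart from a bound for MMP3.

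The sequence before the annotated start was compared for those members that matched the RefSeq promoter table (GRCh38.p14), which were MMP10, MMP14, TIMP1 and TIMP3. MMP1, MMP2, MMP3, MMP9, MMP13 and TIMP2 were not matched. Each window held 250 bases before the start and 50 after it. A member of the chromosome 11 cluster with a background reading and an inhibitor with bright readings on both arrays are shown, to set an inducible protease promoter beside that of TIMP1. Capitals mark TGANTCA and TGAGTAA, which are forms of the AP-1 element, and TATAAA, the TATA element.
MMP10, chr11:102780579-102780878, minus strand: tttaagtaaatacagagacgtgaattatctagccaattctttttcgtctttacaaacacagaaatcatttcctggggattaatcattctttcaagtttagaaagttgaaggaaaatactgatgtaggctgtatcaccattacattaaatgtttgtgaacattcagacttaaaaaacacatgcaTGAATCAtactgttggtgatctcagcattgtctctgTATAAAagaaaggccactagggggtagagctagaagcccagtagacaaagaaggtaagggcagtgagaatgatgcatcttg
TIMP1, chrX:47582186-47582485, plus strand: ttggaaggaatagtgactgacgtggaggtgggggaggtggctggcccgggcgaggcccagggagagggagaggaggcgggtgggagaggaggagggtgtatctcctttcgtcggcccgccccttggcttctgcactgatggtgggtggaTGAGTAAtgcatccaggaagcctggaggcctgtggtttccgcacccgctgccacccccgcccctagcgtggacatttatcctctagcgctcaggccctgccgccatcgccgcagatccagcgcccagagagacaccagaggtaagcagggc

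Searching both strands, the MMP10 window held TGAATCA from 67 to 61 bases before the start and TATAAA from 31 to 26 bases before it. The TIMP1 window held no TGANTCA and no TATAAA, but TGAGTAA from 101 to 95 bases before the start and 2 matches of the GC box GGGCGG. The MMP14 window held 1 GC box and the TIMP3 window 5, and neither held an AP-1 form or TATAAA. Of 35116 promoter windows of the same length, 7.71% held TGANTCA, 2.57% TGAGTAA, 11.5% TATAAA and 45.0% GGGCGG. The motifs do not overlap in the printed windows. A match of letters does not show that a factor binds there.

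MMP1 and MMP3 were next set beside the other genes of their region on chromosome 11, from YAP1 to DYNC2H1. Apart from them, 5 of the genes in that region were above the floor on both arrays, and all 5 were lower with the NSD3L siRNA. YAP1, a transcriptional coactivator of the Hippo pathway, had a log2 ratio of -0.55 at 1053 against 1539, and BIRC2, which encodes the apoptosis inhibitor cIAP1, read 167 against 204 with -0.29. TMEM123 had -0.18, DCUN1D5 -0.11 by its brightest probe and MMP27, barely above the floor at 41.9 against 44.5, -0.09. A dimmer measured probe of DCUN1D5 gave -0.45 at 45.6 against 62.3, and another passed the floor on the NSD3L siRNA array alone. The cluster genes MMP7, MMP8, MMP12 and MMP20 were below the floor on both arrays.

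The window was then widened, after the data had been seen, to the 20 measured genes on each side of MMP1. Without MMP1 and MMP3, 31 of 39 genes were lower, or 79.5%, with a median log2 ratio of -0.25 and values from -1.02 to 0.35. Of all 10538 measured genes 50.6% were lower, and of the 628 on chromosome 11 45.7% were, with a median of 0.02. The caspase gene CASP1, at 74.8 against 152 and -1.02, was the only neighbour past 2-fold apart from MMP3. Its other probe read below the floor on both arrays. MMP1 lay 0.87 and MMP3 1.01 log2 units below the median of these neighbours. Whether the lower values of MMP1 and MMP3 share a source with those of their neighbours was not tested.

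**Figure D4:**
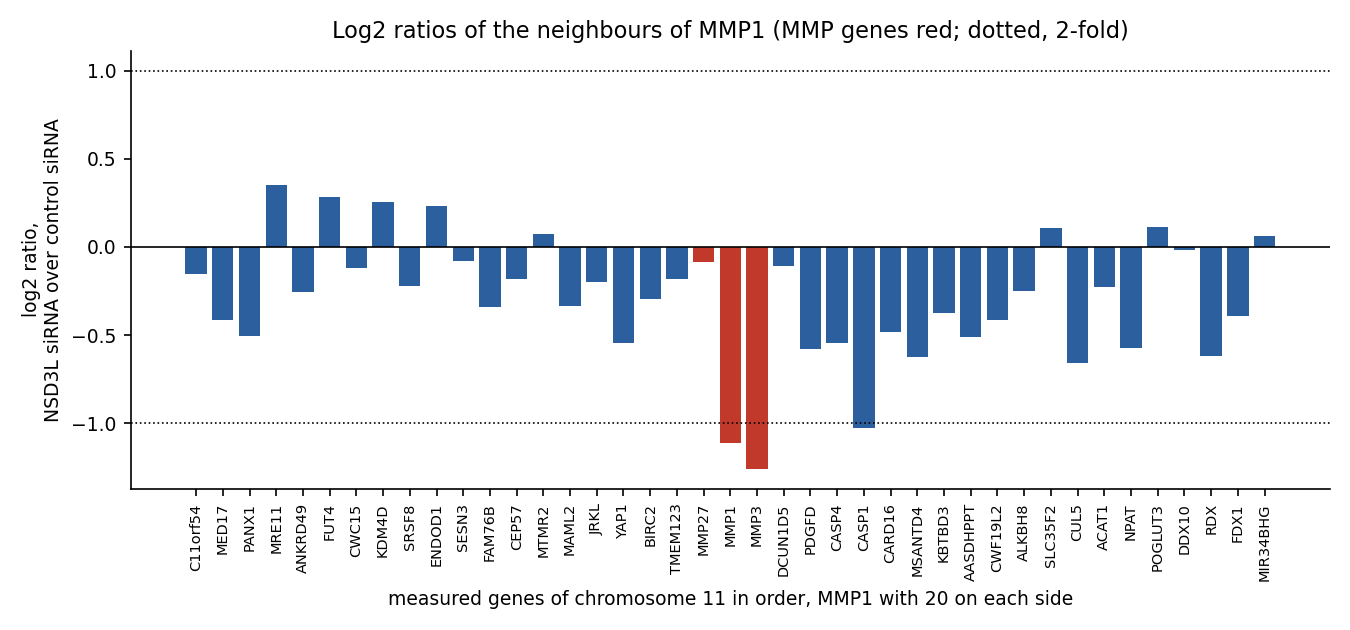
Log2 ratio of NSD3L siRNA over control siRNA (y axis) for MMP1 and the 20 measured genes on each side of it in their order on chromosome 11 (x axis), each by its brightest probe, with MMP genes in red and 2-fold as dotted lines. The bars of MMP1 and MMP3 reach lowest, and 31 of the other 39 genes also lie below 0.

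Among the other family members measured on both arrays none differed past 2-fold. Of 18 further genes (other MMPs, TIMP4 and the membrane-anchored MMP inhibitor RECK), 17 had a probe and 5 were measured on both arrays, with a median log2 ratio of -0.09. RECK had -0.22 at 60.8 against 70.9, TIMP4 -0.16 at 73.9 against 82.5, MMP27 -0.09 and MMP15, a membrane-type MMP, 0.03 at 48.0 against 47.0. MMP21, at 37.2 against 42.2, passed the floor on the control array alone. Among the related ADAM and ADAMTS proteases, the median was 0.22, with 6 of 9 measured genes higher, 3 lower and none past 2-fold. Of all measured genes, 49.3% were higher and 50.6% lower. ADAM15 had 0.72 by its brightest probe and 0.48 and 0.10 by the others, ADAM8 had 0.56, ADAMTS1 0.55 and ADAMTS6 0.24.

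Genes that act on MMPs or are cut by them were described by counts beside all measured genes, of which 0.607% were more than 2-fold lower and 0.342% more than 2-fold higher. Of 16 measured activators and cofactors, the median was -0.04, with 7 higher, 9 lower and none past 2-fold. TFPI2, a serine protease inhibitor, had -0.84, PLAT, the tissue plasminogen activator gene, 0.74, PLAU, the urokinase gene, whose product starts the plasmin cascade that activates MMP precursors, -0.51 and SERPINE2 -0.34. Of 8 measured matrix substrates, the median was 0.06, with 5 higher and 3 lower. The furthest from 0 were TNC at -0.35 and COL5A1 at 0.31, followed by LAMC1 at 0.19 and COL4A1 at -0.16.

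Of 20 measured transcription factors known to act on MMP promoters, 13 were higher, 6 lower and 1 equal on both arrays, and none was past 2-fold. Their median log2 ratio was 0.10, against -0.0041 over all measured genes, of which 49.3% were higher. CEBPB, which binds promoters of inflammatory genes, read 1218 against 2140 with -0.81, and the ETS factor gene ETV1 had -0.70, near the floor at 41.2 against 67.0. FOSL1, an AP-1 subunit, read 435 against 254 with 0.78, and NFKB1 had 0.47. The AP-1 genes JUN and FOS had 0.23 and -0.11. Whether these factors bear on the values of MMP1 and MMP3 was not tested.

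Among inducers of MMP expression and their receptors, the median was -0.20, with 8 of 15 measured genes lower and 7 higher. Of them, 3 were more than 2-fold lower and 1 more than 2-fold higher, against 0.607% and 0.342% of all measured genes. The list was chosen with earlier results of these data known. CXCL8 had -1.50, PTGS2 -1.31 and IL6 -1.14. The interleukin 1 genes IL1A and IL1B, textbook inducers of MMP1 and MMP3, read 45.1 against 89.2 and 41.2 against 78.6, with log2 ratios of -0.98 and -0.93, both close to the floor on the NSD3L siRNA array. HBEGF, a ligand of the EGF receptor, was past 2-fold in the other direction, at 192 against 85.9 and 1.16. The receptor genes EGFR and TGFBR2 were also higher by their brightest probes, at 350 against 182 and 0.94 for EGFR and at 1579 against 932 and 0.76 for TGFBR2. Their dimmer measured probes gave -0.03 and 0.19. A link between the inducers or receptors and the values of MMP1 and MMP3 was not tested.

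**Figure D5:**
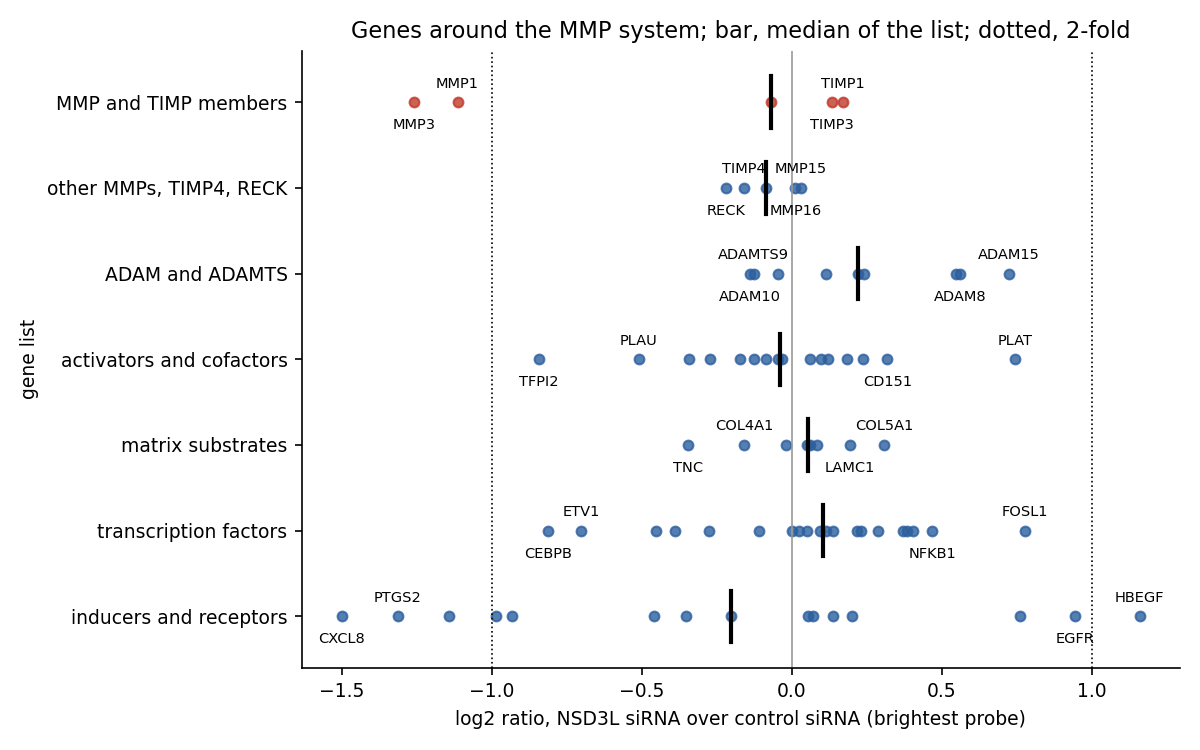
Log2 ratio of NSD3L siRNA over control siRNA (x axis) for the measured genes of each list (y axis), each gene by its brightest probe, with the list's median as a black bar and 2-fold as dotted lines. MMP1 and MMP3 stand left of the line at 2-fold, as do 3 of the 15 inducers, while no measured gene of the other 5 lists passes it.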

How the data were processed

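Values were the authors' deposited probe intensities, 1 linear intensity per probe and array. They came from BeadStudio, per the submitters' processing notes. The sources used here do not give its version or how it treated background and scaling between arrays. Sorted values of the arrays differed by at most 0.025 on the log2 scale. All 23722 annotated probes were in the table, but the annotation's platform record is of another version of the array than the series description names. This bears on all gene names, which rest on matches of probe identifiers.

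The log2 ratio was computed with no offset or scaling (Python 3.11.15, pandas 2.3.3, scipy 1.17.1). The floor was 2 times the mode, the peak of a kernel density below the 75th percentile, less the 1st percentile. Similar brightness means 1 of 10 equal groups of measured probes. A gene in a list was represented by its brightest probe. Lists named their members past 2-fold and otherwise the 4 furthest from 0. JUN, FOS, IL1A, IL1B, EGFR, TGFBR2, KRT18, KRT19, CASP1, MMP21 and the genes of the chromosome 11 region were named after their values were seen. Members and lists were chosen with earlier results of these data known.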

Additional observations from a re-analysis of the deposited data

How the results depend on the processing

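MMP1 and MMP3 remained the 2 MMP and TIMP probes more than 2-fold lower, and none was more than 2-fold higher, under each other setting. The settings were quantile normalization, median centring, lowess, an offset of 16, subtraction of each array's mode and 3 other floors. At a threshold of 1.5-fold, with intensities as deposited, the same 2 probes were lower and 0 were higher. With the mode subtracted, the dimmer TIMP2 probe was at 0.82, past 1.5-fold. Without a floor, all 11 probes counted as above it, against 6, by construction. Of 48 probe ratios under 8 alternatives, 47 moved by less than the SD among probes of similar brightness, and all kept their sign. The exception was MMP3 with the mode subtracted, at -3.00. The 3 other floors leave a ratio unchanged by construction unless a reading falls below the floor. Quantile normalization and median centring could move the ratios little, because the sorted values of the arrays already differed by at most 0.025. The unchanged values under these settings are therefore no further check. MMP3 was -1.01 with the offset of 16 and a bound of -1.09 with the floor at the 75th percentile. With the mode subtracted, 2.93% of all probes were more than 2-fold lower. The median over the members by genes was -0.07 with the brightest probe and 0.13 with the mean over probes. No paired analysis was possible because there was 1 array per group, and for the same reason no array could be left out. The number of arrays limits the precision of every value, and signal near the background limits MMP3 and the 5 dim MMP probes.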
